A study of Mus musculus with 54 samples.

Results

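The regions described here were peaks of Krüppel-associated box zinc finger proteins (KZFPs) whose summit lay inside an annotated exon and more than 1000 bp from every transcription start. They were found by placing each summit on the GENCODE annotation of the GRCm39 mouse genome, counting exons of every gene type except those of genes whose symbols begin with Zfp, Zscan, Zkscan, Zbtb or Znf. Of 24975 peaks on assembled chromosomes, 1063 met the rule, which was 4.26% (exact 95% binomial interval 4.01% to 4.51%), and another 37 peaks on unplaced scaffolds were not assigned. Of the 1063 exon peaks, 780 lay in a protein-coding gene and 283 lay in non-coding genes only. They came from 37 of 42 peak lists.

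Each list held the peaks of 1 KZFP expressed in F9, a cell line derived from a mouse embryonal carcinoma. Every culture carried a codon-optimised KZFP coding sequence with a C-terminal 3x HA tag, integrated by Sleeping Beauty transposition and selected with puromycin, so the protein measured was an over-expressed, tagged copy and not the native one. Chromatin was precipitated through the HA tag, in 5 experimental batches of 3, 3, 13, 20 and 3 KZFPs, and each batch had its own mixed input. There was 1 library per KZFP, and no list had a replicate. Some KZFPs shared 1 zinc finger array, so the 42 lists stood for 32 distinct arrays, and lists of the same array are counted together wherever arrays are counted. Names of the form Zfp_MB016 are the names the labels use.

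KZFPs pair a row of DNA-reading zinc fingers with a KRAB domain that recruits the corepressor TRIM28 and, through it, heterochromatin marked by H3K9 trimethylation. They are best known for binding transposable elements, and an exon of a coding gene is a less familiar target because its sequence is usually unique in the genome. A coding gene's exons consist of the coding sequence (CDS) and the untranslated regions (UTRs) on either side, and the last exon often carries a long 3' UTR. Exons of long non-coding RNAs (lncRNAs) are not translated, and they frequently contain sequence derived from transposable elements.

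Exons of different genes could carry the same site, as the sequences under the summits show. For 5 KZFPs the site is shown in the coding gene and in the non-coding gene with the highest fold enrichment among their motif-holding exon peaks, read on the strand that carries the motif, with the motif of that KZFP in capitals. The motif is the consensus listed with the study's supplementary data, and it was searched on both strands of the 200 bases around each summit. For Zfp982 it reads AGACCCTCTGG, for Zfp_MB026 ATATGGAATGGAGAG, for Zfp_MB028 AATGGACCAGC and for Zfp_MB022 TCATAAAACAGATAG.
Nopchap1 3' UTR, Zfp_MB016: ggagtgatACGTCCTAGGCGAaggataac
Gm63284 lncRNA, Zfp_MB016: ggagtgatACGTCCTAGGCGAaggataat
Rad1 3' UTR, Zfp982: agatgccgcAGACCCTCTGGgcccctttg
Gm16223 lncRNA, Zfp982: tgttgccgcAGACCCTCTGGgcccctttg
Nopchap1 3' UTR, Zfp_MB026: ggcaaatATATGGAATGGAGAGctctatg
Gm44215 non-coding, Zfp_MB026: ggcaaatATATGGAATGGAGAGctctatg
B230307C23Rik 3' UTR, Zfp_MB028: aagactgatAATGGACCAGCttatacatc
Gm44215 non-coding, Zfp_MB028: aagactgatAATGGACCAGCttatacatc
Wdr20rt 3' UTR, Zfp_MB022: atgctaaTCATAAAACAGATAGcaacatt
Gm53843 lncRNA, Zfp_MB022: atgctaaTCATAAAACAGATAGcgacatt

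Between the coding and the non-coding gene of each pair, the 29 bases shown were identical at 28 positions for Zfp_MB016, 27 for Zfp982, 29 for Zfp_MB026, 29 for Zfp_MB028 and 28 for Zfp_MB022. The likeness extended past the motif, into bases that the motif search did not use. The Zfp_MB016 sites lay at chr10:83301906-83301934, minus strand, and chr15:88920873-88920901, minus strand. The Zfp982 sites lay at chr15:10496599-10496627, plus strand, in the gene of a subunit of the DNA damage checkpoint clamp, and chr5:42227510-42227538, plus strand. The Zfp_MB026 sites lay at chr10:83307360-83307388, minus strand, and chr6:128668101-128668129, plus strand. The Zfp_MB028 sites lay at chr16:97838559-97838587, plus strand, and chr6:128668888-128668916, plus strand, within the same exon as the Zfp_MB026 site. The Zfp_MB022 sites lay at chr12:65279836-65279864, minus strand, and chr14:34086695-34086723, plus strand.

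A further 4 peaks lay in CDS, and they are shown on the strand of the gene to give the exon around the summit. In Ccdc7b the capitals mark the Rex2 motif, in Kpna3 and Rufy1 they mark the whole annotated exon with 20 bases of intron on each side, and in Gdf15 they mark 21 bases centred on the summit.
Ccdc7b CDS, Rex2: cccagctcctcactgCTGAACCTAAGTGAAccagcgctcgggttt
Kpna3 CDS, Zfp_MB020: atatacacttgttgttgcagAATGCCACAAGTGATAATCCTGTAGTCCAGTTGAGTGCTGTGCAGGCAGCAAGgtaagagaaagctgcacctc
Rufy1 CDS, Zfp_MB015: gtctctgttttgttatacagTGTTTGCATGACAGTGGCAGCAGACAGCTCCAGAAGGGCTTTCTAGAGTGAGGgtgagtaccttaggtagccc
Gdf15 CDS, Zfp982: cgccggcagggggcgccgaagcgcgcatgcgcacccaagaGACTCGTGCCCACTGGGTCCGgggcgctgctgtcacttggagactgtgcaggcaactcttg

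The Kpna3 exon (chr14:61628828-61628920, minus strand with its flanks) is exon 5 of 17 in the gene of an importin alpha and measures 53 bases, and its peak had a fold enrichment of 36.3, the highest among the 31 exon peaks of Zfp_MB020. Fold enrichment is the ratio of ChIP to input signal at the summit as the peak caller gave it. The Rufy1 exon (chr11:50282192-50282284, minus strand) also measures 53 bases, lies in the gene of an endosomal RUN and FYVE domain protein, and held the single exon peak of Zfp_MB015, at 15.9. Gdf15 (chr8:71082459-71082559, minus strand), which encodes a secreted stress cytokine of the TGF-beta family, had 143 in the Zfp982 list. None of these 3 windows held the motif of its KZFP, which says only that these letters were not in the 200 bases searched. Ccdc7b (chr8:129828961-129829005, plus strand) had 43.1 in the Rex2 list and held the motif.

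Exon peaks were spread unevenly over the KZFPs. Zfp_MB016 had 253 exon peaks, Zfp_MB026 had 251 and Zfp982 had 173, and these lists together gave 677 of the 1063 (63.7%). Zfp_MB001 followed with 70, Zfp_MB014 with 50, Zfp_MB005 with 38, Zfp_MB028 with 32 and Zfp_MB020 with 31. The other lists with exon peaks had between 1 and 17. Zfp268, Zfp978, Zfp979, Zfp_MB004 and Zfp_MB021 had none. Their lists held 21, 24, 42, 54 and 76 peaks in that order, and a count of 0, with a limit of 3 counts of the total, still allows shares of up to 14.3%, 12.5%, 7.14%, 5.56% and 3.95%. The exact two-sided 95% intervals, which are those plotted by list, reach 16.1%, 14.2%, 8.41%, 6.60% and 4.74%.

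As a share of their own list, exon peaks made up 6.11% of 4105 peaks for Zfp_MB026 (exact 95% interval 5.40% to 6.89%), 6.08% of 1152 for Zfp_MB001 (4.77% to 7.62%) and 7.56% of 410 for Zfp_MB020 (5.19% to 10.6%). These intervals lay above 4.32%, the share of non-gap genome bases that meet the rule. Zfp_MB028 lay below it, with 2.25% of 1423 peaks (1.54% to 3.16%), as did Zfp982 with 3.65% of 4745 (3.13% to 4.22%) and Zfp_MB003 with 1.67% of 360 (0.614% to 3.59%). Zfp_MB016, the longest list, had 4.10% of 6170 peaks (3.62% to 4.63%), and its interval contained the genome share. The intervals cover counting error only. Each share is of all peaks in the list, those near a start included.

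**Figure D1:**
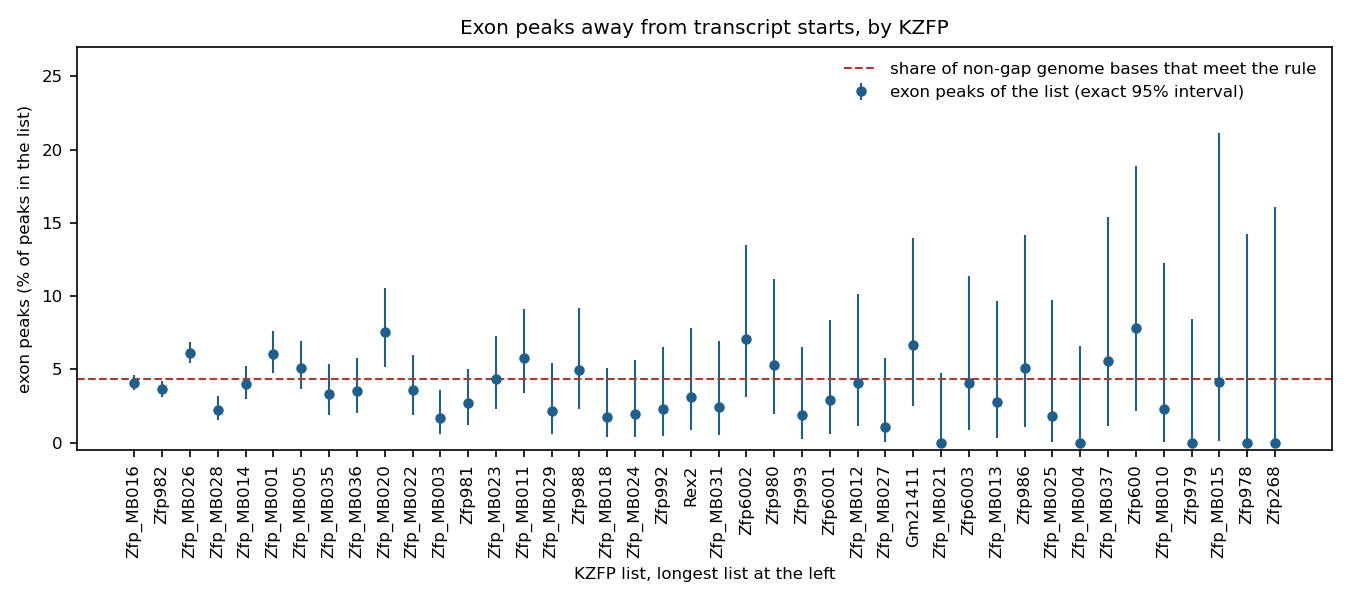
Exon peaks as a percentage of each KZFP's peaks, with exact 95% binomial intervals, for all 42 lists ordered from the longest to the shortest; the dashed line is the 4.32% of non-gap genome bases that meet the rule. Zfp_MB026, Zfp_MB001 and Zfp_MB020 lay above the line with their whole interval, and intervals widened toward the shorter lists.

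Averaged over lists with equal weight, the exon share lay below the rule's share of the genome. It was taken over all peaks of a list, those near a start included. In the pooled lists, 3995 peaks had the summit in an exon at or within 1000 bp of a start. No share was computed among peaks away from starts alone, so the difference does not show that exons were avoided. The mean share was 3.45% against 4.32% of the genome, a difference of -0.87 percentage points (SD 2.12 over 42 lists), with the share higher than the genome in 13 lists and lower in 29 (two-sided sign-flip permutation test, adjusted p = 0.0269 over 7 tests). With 1 value per zinc finger array the difference was -0.57 points and its permutation test gave an adjusted p = 0.239, which ended the call. It also missed the threshold with protein-coding and lncRNA genes only (-0.72 points), at a fold enrichment of at least 15 (-0.63), within batch 3 (-1.04) and within batch 4 (-0.71). Pooling all peaks, so that long lists weigh more, gave 4.26%.

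Coding genes held 73.4% of the exon peaks (exact 95% interval 70.6% to 76.0%), against 73.0% of the genome bases that meet the rule. Among the 780 coding peaks, 401 (51.4%) had the summit in a 3' UTR and in no CDS, 285 (36.5%) in the CDS of at least 1 transcript, 25 (3.21%) in a 5' UTR, and 69 (8.85%) only in exons of non-coding transcripts of the gene. CDS makes up 30.9% of the coding bases that meet the rule. Of the 285 CDS peaks, 135 were also in a UTR of another transcript of an annotated gene. In the transcript with the longest exon under the summit, 558 of the 780 coding peaks (71.5%) lay in the last exon. This choice favours long exons, and the share of coding bases that lie in last exons was not computed. By the same choice, the median exon was 2390 bases long for coding and 1032 bases for non-coding peaks, with no median over all exons to set beside them.

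The division between gene parts varied by KZFP. Zfp982 had 147 coding and 26 non-coding exon peaks, and 78 of its coding ones were in CDS. Zfp_MB026 had 198 coding and 53 non-coding, with 58 in CDS and 113 in 3' UTRs. Zfp_MB016 had the most non-coding peaks, 96 beside 157 coding ones, of which 57 were in CDS. Zfp_MB028 had 1 peak in CDS among 22 coding ones, 15 of them in 3' UTRs, while Zfp_MB011 had 11 in CDS among 16. Zfp_MB022 was the only list with at least 10 exon peaks in which non-coding outnumbered coding ones, 8 against 5.

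**Figure D2:**
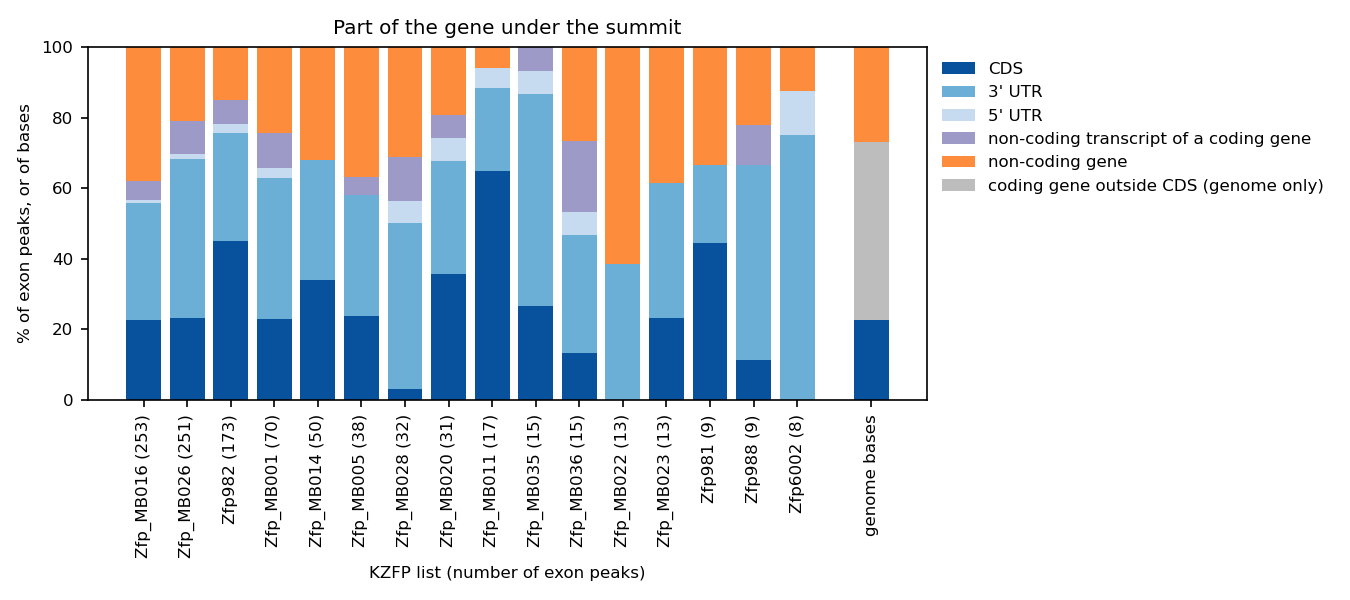
Part of the gene under the summit, as a percentage of exon peaks, for the 16 lists with at least 8 exon peaks, and at the right the genome bases that meet the rule, where coding bases outside CDS are not divided further. Zfp_MB011 and Zfp982 had the deepest CDS bars among lists with more than 15 exon peaks, and Zfp_MB022 had no CDS peak.

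In CDS, high fold enrichments belonged to genes of quite different function. For Zfp982, Gdf15 had 143 and Topors, a ubiquitin and SUMO ligase, had 131. For Zfp_MB026, Eprs1, the glutamyl-prolyl tRNA synthetase, had 106, with the summit in CDS of some transcripts and 3' UTR of others. For Zfp_MB016, Map2k1, the MEK1 kinase of the ERK pathway, had 72.2, in exon 7 of 11. Each of these windows was free of 31-base words that occur elsewhere in the genome. Zfp_MB014 had 57.7 at Prmt5, a protein arginine methyltransferase. Zfp_MB001 had 55.7 at Actl11, a single-exon actin-like gene, where CDS spans the whole window.

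3' UTRs held the strongest exon peak of 3 of the 6 longest lists. Zfp_MB026 reached 196 in Nopchap1, the highest fold enrichment of any exon peak, and ranked 12 in its own list. Zfp982 reached 176 in Shf, an SH2 domain adaptor, at rank 3. Zfp_MB016 had 107 in Rhbdd2 and 77.3 in Iqce, at ranks 65 and 148. Zfp_MB026 had 124 in Clip2, a cytoplasmic linker of microtubules, and 91.0 in Hsd17b14, a hydroxysteroid dehydrogenase. Zfp_MB028 had 110 in Tatdn2, rank 2 of its list, and Gm21411, which carries the same zinc finger array, had its highest exon peak there too, at 24.1. These were 1-library values with no replicate error.

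For 1 of the 42 lists the strongest peak was an exon peak, while exon peaks made up 4.26% of all peaks, so the count is not notable. Zfp986 had a fold enrichment of 74.0 in the 3' UTR of Mettl27, against 57.8 for the highest of its other peaks, in a list of 59 peaks with 3 exon peaks. In shorter lists the highest exon peaks included Smc1a, a cohesin subunit, with 29.9 for Zfp6002, Rbm7, an RNA-binding protein of the nuclear exosome pathway, with 12.3 for Zfp_MB010, and Zic4, a zinc finger transcription factor, with 7.09 for Zfp980 and 6.43 for Zfp981. The lists of Zfp980 and Zfp981 had been cut at a fold enrichment of 5 and not 10 by the authors, so their lower values are not comparable with those of the other lists.

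Among non-coding genes, 255 of the 283 peaks lay in lncRNA exons, 25 in provisional gene models of the class that GENCODE calls TEC, and 3 in pseudogenes with no lncRNA exon under the summit. The highest values were 140 at Gm63776 for Zfp_MB001, 121 at Gm63284 and 99.0 at Gm57315 for Zfp_MB016, and 81.8 at Gm48302 for Zfp_MB001. Gm63284 and Gm57315 each had a window made entirely of words repeated in the genome, and those of Gm63776 and Gm48302 had none. For Zfp_MB014 the strongest non-coding peaks were Gm28720 with 68.4 and 4930428E07Rik with 55.4. For Zfp_MB028 Gm37274 had 57.5, and for Zfp_MB026 4933439J24Rik had 76.5. Zfp982 had its highest non-coding value at Gm31135, 40.8, at rank 443 of the list.

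The difference in fold enrichment between coding and non-coding peaks did not pass the test. The median was 15.6 for coding and 15.5 for non-coding peaks, with a range of 5.01 to 196 for coding and 5.33 to 140 for non-coding peaks. Over the 10 lists with at least 5 peaks of each class, the mean of the list medians was 3.99 for coding and 3.89 for non-coding peaks on the log2 scale, a difference of 0.10 (SD 0.38; higher in 5 lists and lower in 5; permutation test, adjusted p = 0.417). Between exon peaks and the other peaks of their list the difference was -0.03 on the log2 scale (SD 0.10 over 19 lists, higher in 7 and lower in 12; permutation test, adjusted p = 0.277). The closeness of these values does not show that the classes are alike.

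Exon peaks lay on less repetitive sequence than the other peaks of the same lists. For each summit the multi-copy share was computed, the percentage of 31-base words in the surrounding 200 bases that occur more than once in GRCm39. Averaged over the 19 lists with at least 5 exon peaks, it was 23.4% for exon peaks and 41.1% for other peaks, a difference of -17.7 percentage points (SD 14.1), lower in 18 of 19 lists (permutation test, adjusted p = 0.00021). Within batch 3 it was -17.9 points over 6 lists and missed the threshold (exact permutation test, adjusted p = 0.146). With 6 lists the exact test could not have passed after the adjustment. Zfp_MB028 had the widest gap, 24.1% for exon peaks and 74.8% for other peaks. Zfp_MB014 had 16.3% for exon peaks and 55.4% for other peaks, and Zfp_MB026 had 9.19% for exon peaks and 34.5% for other peaks. The exception was Zfp_MB003, with 17.7% over 6 exon peaks and 16.8% over its other peaks. The authors kept 1 of equally good alignments at random, so a peak in repeated sequence can be placed on another copy. The multi-copy share was not computed for all genome bases that meet the rule. These values therefore do not tell exons with a peak from exons in general.

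Within the exon peaks, coding genes had the less repetitive windows. The share over all coding or non-coding bases that meet the rule was not computed, so this is not shown to be particular to peaks. Over 10 lists the multi-copy share averaged 17.1% for coding and 35.0% for non-coding peaks, a difference of -17.9 points (SD 20.2), lower in 9 of 10 lists (permutation test, adjusted p = 0.0269). Zfp_MB016 had 28.3% for coding and 62.2% for non-coding peaks, and Zfp_MB005 had 24.5% for coding and 64.3% for non-coding peaks. Zfp_MB022 was high in both, with 61.2% for coding and 63.2% for non-coding peaks. Zfp_MB028 went the other way, with 26.0% over 22 coding and 20% over 10 non-coding peaks. Within batch 4 alone, over 7 lists, the difference was -16.3 points (exact permutation test, adjusted p = 0.146), and batch 3 had only 2 such lists. The call was also lost in exact permutation tests beyond 2000 bp from a start (-16.1 points, adjusted p = 0.146) and with protein-coding and lncRNA genes only (-11.9, 0.109). The same tests lost it with at least 10 peaks per class (-16.0, 0.146) and without mostly multi-copy windows (-2.30, 0.306). At a fold enrichment of at least 15 the difference was -21.4 points, lower in all 6 lists (exact permutation test, adjusted p = 0.0729). An exact test over 6 lists could not have passed the adjustment. All of these settings held fewer lists than the 10 of the main result.

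**Figure D3:**
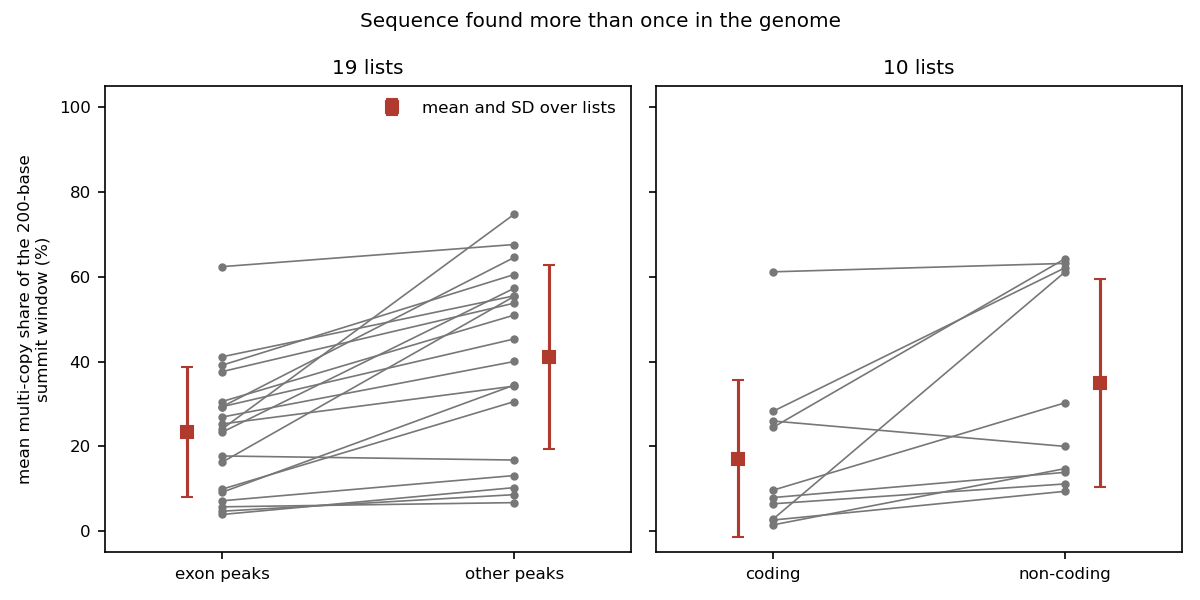
Mean multi-copy share of the 200-base summit window in each list, exon peaks at the left and other peaks of the same list at the right (19 lists), then coding at the left and non-coding exon peaks at the right (10 lists); lines join values of 1 list and squares with bars give the mean and SD over lists. Most lines climb to the right, with means of 23.4% and 41.1% in the first panel and 17.1% and 35.0% in the second.

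The parts of coding genes differed in the same measure, given here as a description. Of the CDS peaks, 238 of 285 (83.5%) had no repeated word in the window, as did 258 of 401 3' UTR peaks (64.3%) and 125 of 283 peaks in non-coding genes (44.2%). Windows were also aligned to each other: 7 of 285 CDS peaks (2.46%) resembled at least 5 non-exon peaks of the same list over at least 100 bases at 80% identity, against 90 of 401 3' UTR peaks (22.4%) and 123 of 283 non-coding peaks (43.5%). These are pooled over lists, and without Zfp_MB016 they were 1.32% of CDS, 17.7% of 3' UTR and 31.6% of non-coding peaks. Among lists with at least 10 exon peaks, resemblance was most common for Zfp_MB022, with 12 of 13. Zfp_MB005 followed with 16 of 38 and Zfp_MB016 with 106 of 253. It was rare for Zfp_MB026, with 19 of 251, and Zfp_MB001, with 1 of 70. In some lists with fewer exon peaks each of them resembled others, as with 4 of 4 for Zfp_MB029. The measure needs 5 similar peaks in the same list, so it depends on the length of the list.

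The motif of the KZFP was found in 6 of 282 CDS windows (2.13%), 65 of 400 3' UTR windows (16.2%) and 80 of 283 non-coding windows (28.3%). Zfp_MB016 supplied many of these, and without it the counts were 2 of 225 CDS (0.889%), 38 of 316 3' UTR (12.03%) and 27 of 187 non-coding windows (14.4%). Over all exon peaks searched it was in 163 of 1058 (15.4%), against 30.1% of the other peaks, and without Zfp_MB016 in 76 of 805 (9.44%), against 26.99%. For Zfp_MB026 the motif was in 5 of 251 exon windows (1.99%, exact 95% interval 0.65% to 4.59%), against 25.3% of its other peaks, for Zfp_MB014 in 2.00% against 32.8%, and for Zfp_MB028 in 21.9% against 71.4%. For Zfp_MB016 it was in 34.4% against 39.4%, and for Zfp982 in 16.8% against 20.9%. Of the 6 CDS windows with a motif, those of Ccdc7b, Senp2, Tmed7, Lhfpl6 and Cmc2 were at least 88.8% multi-copy, and that of Cpne9 was not repeated at all; these genes were chosen after their values were seen. The motifs were derived by the authors from peaks of these same libraries.

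**Figure D4:**
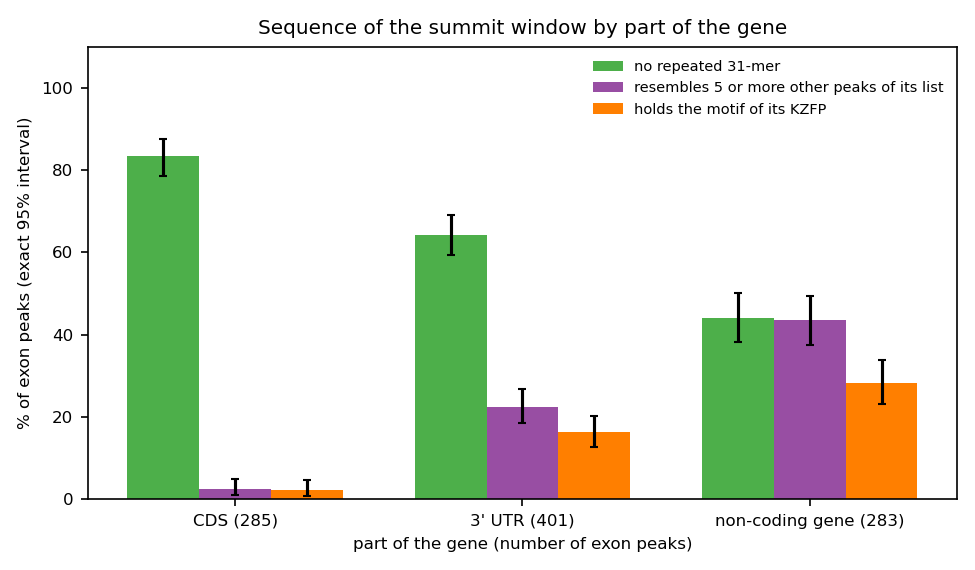
Percentage of exon peaks whose 200-base window had no repeated 31-base word, resembled at least 5 other peaks of its list, or held the motif of its KZFP, by part of the gene, with exact 95% binomial intervals. CDS peaks had the highest share without repeated words (83.5%) and the lowest shares of resemblance (2.46%) and motif (2.13%), and non-coding genes the reverse (44.2%, 43.5% and 28.3%).

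For GC content and sharing between KZFPs, the differences did not pass the test with all exon peaks. The mean of the list medians of GC was 50.6% in exon windows and 52.1% in other windows, a difference of -1.42 points (SD 3.73 over 19 lists; permutation test, adjusted p = 0.202). For summits more than 2000 bp from a start it was -2.08 points and passed (permutation test, adjusted p = 0.0156), and against intron peaks only it turned to 0.89 points. A peak was counted as shared where it overlapped a peak of a KZFP with a different zinc finger array by at least 1 base. The mean share was 40.9% of exon peaks and 36.4% of other peaks, a difference of 4.47 points (SD 19.4 over 19 lists, higher in 10 and lower in 9; permutation test, adjusted p = 0.392). Pooled over lists, 211 of the 1063 exon peaks (19.8%) were shared, 143 of 780 coding and 68 of 283 non-coding, against 22.6% of the other peaks, which is the opposite direction to the mean over lists.

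Merging overlapping exon peaks gave 940 separate regions, of which 866 held peaks of 1 array, 60 of 2 arrays and 14 of at least 3. The share of 1 array was 92.1%, against 89.6% of the 20174 merged regions with no exon peak. The exon peaks touched 932 genes, and 17 of these had exon peaks from at least 3 arrays. A library in which a gene is not named had no exon peak there that passed the authors' cuts, which is not evidence of no binding.

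Nopchap1, a chaperone gene for box C/D small nucleolar ribonucleoproteins on chromosome 10, had the most, 16 exon peaks from 10 lists and 7 arrays. All 16 lay in a single annotated last exon of 122802 bases, annotated as 3' UTR under each summit. This exon held 16 of the 26 exon peaks in exons over 10 kb. They formed 12 separate regions. At 1 of these, with summits at 83260529 to 83260544, Zfp_MB035 had a fold enrichment of 67.9, Zfp6001 had 30.1, Zfp6003 had 26.1 and Zfp6002 had 20.6, in a window without repeated words. Zfp_MB035, Zfp6001 and Zfp6003 share 1 array and Zfp6002 has another. The remaining values ran up to the 196 and 145 of Zfp_MB026, and the Zfp982 peak had 66.1.

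Spred2, which encodes an inhibitor of Ras and ERK signalling, was shared most widely at 1 place. Its exon 6 on chromosome 11 held peaks of 8 lists and 7 arrays with summits between 19970841 and 19970924, in the CDS near the start of the exon, which 1 further transcript annotates as 3' UTR. Fold enrichment was 17.8 for Zfp_MB016, 11.5 for Zfp_MB035, 10.7 for Zfp_MB037 and 10.7 for Zfp982. It was 7.42 for Zfp_MB011, 5.94 for Zfp981, 5.65 for Zfp980 and 5.47 for Zfp_MB003, whose lists had the lower cut of 5. None of the windows held the motif of its KZFP. Batches 1, 3, 4 and 5 were represented, and batches 3 and 5 had no empty vector library of their own.

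Wdr20rt, Slc38a1, Gm53843 and Gm59374 each had peaks from 4 arrays. In Wdr20rt, a retrogene on chromosome 12, the 6 peaks ranged from 10.6 for Zfp_MB024 to 28.5 for Zfp_MB022. In Slc38a1, a neutral amino acid transporter on chromosome 15, the 5 peaks ranged from 5.18 for Zfp_MB003 to 15.3 for Zfp_MB037, over windows at least 80.6% multi-copy. The lncRNA gene Gm53843 had 5 peaks between 10.99 for Zfp_MB029 and 27.8 for Zfp_MB022. The lncRNA gene Gm59374 had 4 peaks between 5.33 and 11.7, and each of its windows was 100% multi-copy.

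Peaks from 3 arrays were found in 11 further genes, and some of these had the same set of KZFPs as another. 1110046J04Rik, a single-exon lncRNA gene on chromosome 13, had 8 peaks with summits within 28 bases. All 6 KZFPs of 1 shared array were among them, with 76.4 for Zfp_MB029, 39.1 for Zfp_MB024, 39.0 for Zfp_MB031, 25.5 for Zfp_MB027, 25.5 for Zfp993 and 21.4 for Zfp992. Zfp_MB022 had 18.6 and Zfp_MB012 had 10.8 from other arrays. 1700019D03Rik and Cep57l1 had peaks of the same 5 lists, highest for Zfp_MB035 at 62.5 and 75.7, and between 11.3 and 23.6 for Zfp6001, Zfp6002, Zfp6003 and Zfp_MB018.

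Gm63776, a lncRNA gene on chromosome 8, had 140 for Zfp_MB001, 56.9 for Zfp988 and 11.2 for Zfp982, with summits within 9 bases and a window without repeated words. Its sequence is shown with that of 1110046J04Rik, since 1 was unique in the genome and the other partly repeated, and the capitals run from the lowest to the highest summit.
Gm63776 exon 2: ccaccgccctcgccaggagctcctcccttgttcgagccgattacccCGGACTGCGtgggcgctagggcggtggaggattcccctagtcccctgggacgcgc
1110046J04Rik exon 1: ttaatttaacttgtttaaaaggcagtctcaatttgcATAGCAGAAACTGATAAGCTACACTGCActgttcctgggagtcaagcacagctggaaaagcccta

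The 1110046J04Rik stretch (chr13:34121687-34121787, plus strand) contains AGCAGAAACT, an unbroken run of 10 bases of the 13-base Zfp_MB029 and Zfp_MB024 motif and of the 14-base Zfp993 motif, though the full motif did not match in any of the 8 windows. In the Gm63776 stretch (chr8:71318284-71318384, plus strand) the longest run of a motif was 6 bases, from that of Zfp988. Runs of this length were looked for in these stretches only, and no share among other regions was computed.

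Atg2b, Sag and ENSMUSG00000133770 drew on Zfp_MB016 together with Zfp_MB005, Zfp_MB026 or Zfp_MB036. The windows of ENSMUSG00000133770 were 100% multi-copy. At Atg2b, a lipid transfer protein gene of autophagy, fold enrichment was 134 for Zfp_MB016, 97.9 for Zfp_MB005 and 31.1 for Zfp_MB026. The Atg2b windows were 100%, 100% and 62.4% multi-copy in that order. At Sag, the rod arrestin gene, fold enrichment was 51.7 for Zfp_MB016, 20.7 for Zfp_MB036 and 12.4 for Zfp_MB005, in windows 94.7% multi-copy. The summits at Atg2b and Sag lay only in exons of non-coding transcripts of these genes. Ano6, a phospholipid scramblase gene, had 55.7 for Zfp_MB016 and 14.1 for Zfp_MB005 at 1 exon and 22.5 for Zfp_MB026 at another. Egr1, an immediate early transcription factor gene, had 19.7 for Zfp_MB025 and 12.5 for Zfp_MB011, and 6.89 and 9.21 for Zfp600, all in unique sequence. The lists of Zfp_MB011 and Zfp600 had the lower cut of 5. Slc17a5 and Xpnpep1 had 3 separate regions each, from Zfp_MB016 with Zfp_MB026 or Zfp_MB028, with fold enrichments from 11.7 to 17.8. Their windows were 100% multi-copy, apart from 88.8% for Zfp_MB028 in Xpnpep1.

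**Figure D5:**
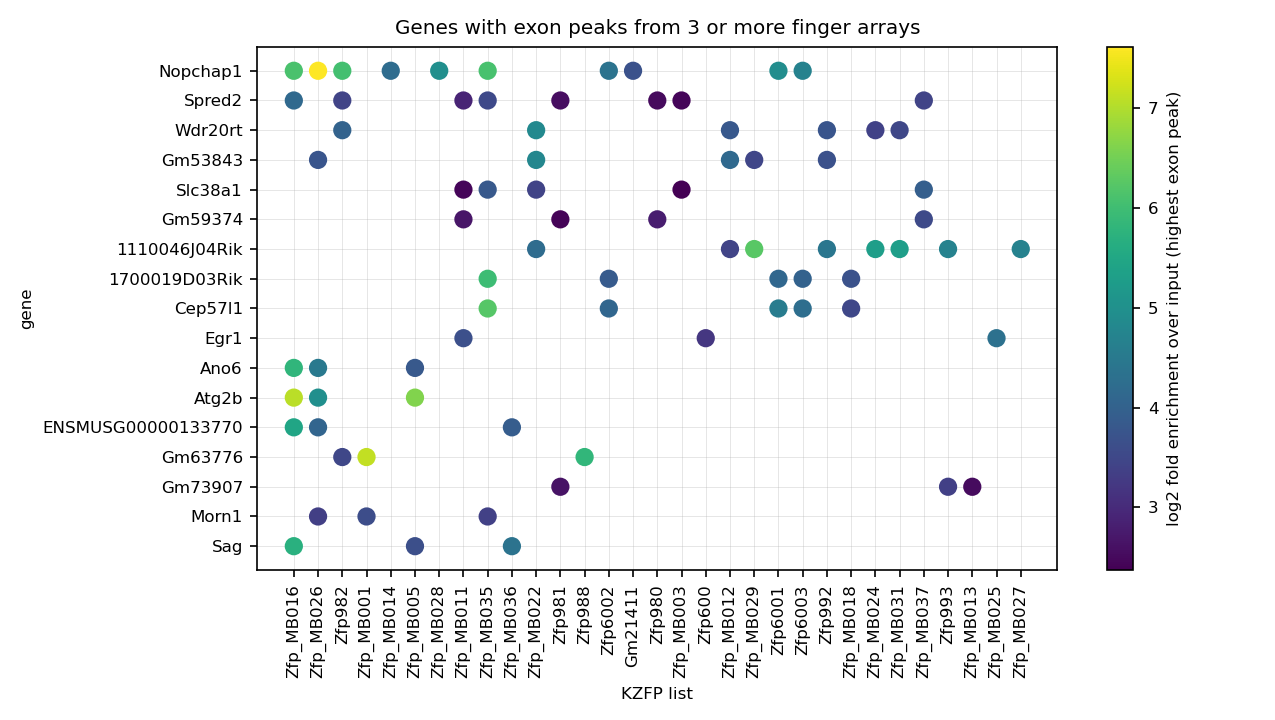
Genes with exon peaks from at least 3 zinc finger arrays, from the most arrays at the top, against the KZFP lists; each point is the highest exon peak of that list in the gene and its colour is the log2 fold enrichment over input. Nopchap1 spans 10 lists and reaches 196-fold for Zfp_MB026, Spred2 spans 8 lists with at most 17.8, and 1110046J04Rik is filled mainly by KZFPs of 1 array.

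Over all 77760 annotated genes outside the zinc finger symbols, 1.20% had an exon peak, and over the 21275 protein-coding ones 3.19%. Of 1382 annotated odorant receptor genes, which encode the smell receptors of olfactory neurons, 6 (0.434%) had an exon peak, from 3 lists, highest for Or5w19 with Zfp_MB016 at 29.6. Of 591 vomeronasal receptor genes, 5 (0.846%) had one, highest for Vmn2r120 with Zfp982 at 22.5. Both of these lay in long 3' UTRs and held the motif of their KZFP. Among 385 solute carrier symbols 11 (2.86%) had exon peaks, 17 in all, with Slc4a7 at 35.6 for Zfp982 the highest.

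Other families had between 0 and 5 genes with exon peaks. Hoxd4, a homeobox gene, had 76.7 for Zfp_MB026 in its CDS, and Hoxa4 had 13.9 for the same KZFP, also in CDS, which makes 2 of the 45 genes of the homeobox clusters (4.44%). Symbols of the ribosomal protein pattern gave 5 peaks in 5 of 410 genes, with Rps15a at 79.9 for Zfp_MB026 and Rpl37a at 30.2 for Zfp_MB028, and they include Rps6kb1, which encodes a kinase and not a ribosomal protein. H4c14, a histone gene, had 23.2 for Zfp_MB026, and Col1a1, a collagen gene, 15.4 for Zfp_MB016. Trim80, a tripartite motif gene, had 6.98 and Pcdhgb4, a protocadherin gene, 5.60, both for Zfp_MB011. Each was the only gene of its group with an exon peak. That was 0.952% of histone, 2.27% of collagen, 1.43% of tripartite motif and 1.41% of protocadherin genes. None of 173 keratin or 15 mucin genes had an exon peak. The share over all protein-coding genes was 3.19%, so 15 genes are too few to show a lower share. No group was tested against that share.

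Among 11 long nuclear or imprinted RNA genes with an entry in the annotation, Neat1, the scaffold of paraspeckles, had 10.8 for Zfp_MB026, and Kcnq1ot1, an imprinted antisense RNA, had 10.5 for Zfp6002. Genes known only by a Gm number accounted for 235 exon peaks in 205 of 49499 genes (0.414%). Those named as RIKEN clones accounted for 49 in 36 of 3010 genes (1.20%). The share over all annotated genes was 1.20%. Pseudogenes, of which 13795 are annotated, were touched by 4 exon peaks. None of the exon peaks lay between Tnfrsf8 and Miip, the genes that flank the KZFP cluster of distal chromosome 4.

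At the edge of the rule, the 32 peaks with the summit 1001 to 1100 bp from a start had a median fold enrichment of 16.4, and the 30 peaks in exons at 901 to 1000 bp, which were left out, had 13.4. A further 3995 peaks had the summit in an exon at or within 1000 bp of a start, and 73 lay only in exons of the zinc finger genes that the rule leaves out.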

How the data were processed

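ChIP-seq peak lists of 42 HA-tagged KZFPs in F9 cells were analysed, out of 54 samples; 12 samples (empty vector controls, inputs and embryonic stem cell libraries) are not analysed here. According to the methods and the submitters' processing notes, the authors aligned reads to GRCm39 with BWA, keeping 1 of equally good alignments at random, sorted them with SAMtools 1.19, and called peaks with MACS2 2.2.7.1 against the input of each batch. Peaks overlapping an empty vector peak were removed by the authors, who kept those with q of at most 0.01 and a fold enrichment of at least 10, or 5 where fewer than 20 peaks were left. The deposited lists give the fold enrichment as a ratio, −log10 p and −log10 q, and an integer score; the deposited summit offset placed each peak. The deposited lists hold no read counts; the numbers of reads that the study lists per library are not used here, so no depth is set beside a value.

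Summits were placed on GENCODE vM39. Genome shares were computed over non-gap bases. Lists were the units of every test: the difference within each list was tested by sign flips over lists, two-sided, exact below 10 lists and with 100000 resamples otherwise, and the procedure was tested on simulated data. Since each list is 1 library and some KZFPs share an array, these p-values measure the spread between lists only. Of 9 planned tests, 7 were run and adjusted together (Benjamini-Hochberg); those on repeat-masked sequence were not run. Lists entered with at least 5 peaks in each class, or at least 20 peaks for the exon share. Windows were aligned with blastn 2.17.0. Genes were named by rule: the highest exon peak of each list, genes with peaks from at least 3 arrays or 3 separate regions, the 5 highest coding and 5 highest non-coding peaks of the 6 longest lists, of which a part is given (1 gene is not reported here), and up to 4 members of set gene groups. Members, gene groups and tests were chosen with earlier results of these data known. As a check of the chromosome names, the motif of the KZFP was found in 29.5% of 24751 windows, and in 0.00404% when chromosomes were exchanged. Python 3.11.15, numpy 2.4.6, pandas 2.3.3 and scipy 1.17.1 were used.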

Additional observations from a re-analysis of the deposited data

How the results depend on the processing

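The deficit of exon peaks against the genome (-0.87 percentage points) was -0.72 with protein-coding and lncRNA genes only (adjusted p = 0.0696), -0.63 at a fold enrichment of at least 15 (0.277), -0.57 with 1 value per array (0.239), -1.04 within batch 3 (0.109) and -0.71 within batch 4 (0.277), none past the threshold in these permutation tests over lists. The lower multi-copy share of exon peaks was -17.9 points within batch 3 (exact permutation test over 6 lists, too few to pass, adjusted p = 0.146). It was -0.85 without mostly multi-copy windows (permutation test, adjusted p = 0.392), a setting that removes the measure by construction. In the exact tests the coding minus non-coding multi-copy difference kept its direction and missed the threshold in the settings that follow. It was -16.1 points beyond 2000 bp, -11.9 with protein-coding and lncRNA genes only and -21.4 at a fold enrichment of at least 15. It was -30.2 within batch 3, -16.3 within batch 4 and -16.0 with at least 10 peaks per class. Without mostly multi-copy windows it was -2.30, by construction. All of these settings held fewer lists than the 10 of the main result. The 6 lists at a fold enrichment of at least 15 and the 2 of batch 3 were too few for an exact test to pass. In the permutation test GC passed beyond 2000 bp (-2.08 points, adjusted p = 0.0156) and turned to 0.89 against intron peaks only. The log2 fold enrichment of exon minus other peaks turned to 0.21 at a fold enrichment of at least 15 and 0.024 within batch 3, and that of coding minus non-coding peaks to -0.13 at a fold enrichment of at least 15. The share also bound under a different array turned to -1.10 at a fold enrichment of at least 15, -0.99 within batch 4 and -2.38 with at least 10 peaks per class. For these changes other than those by construction, the cause was not tested.

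Leaving out each list in turn, chosen after seeing the data, changed no call. The exon share then ranged from -0.98 to -0.78 points, the multi-copy differences from -18.7 to -15.9 (exon minus other) and from -20.6 to -13.4 (coding minus non-coding), GC from -1.78 to -0.85, the log2 fold enrichment from -0.04 to -0.02 and from 0.03 to 0.18, and sharing from 1.97 to 6.49. No paired analysis was possible by replicate number because each KZFP has 1 library; the tests compare peaks within each list. The planned results on repeat-masked sequence were not run. The lists hold no read counts, exon assignments depend on the annotation, and a gene outside a list may have fallen under the authors' cuts.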
